A study of Danio rerio with 12 samples.

Results

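The kidney is the main blood-forming organ of the adult zebrafish, and cells there that are positive for both gata2a and runx1, genes of blood stem and progenitor cells, were sorted for this study. The comparison described here sets such cells, kept with ZKS cells while exposed to both IWR-1-endo and Thpo, against such cells kept with ZKS cells alone. It comprises 4 of the 12 libraries of the series, 2 per group, chosen by their titles, with no measured value used in the choice. All fish were wild type and adult. Co-cultures with both agents are called treated below, and co-cultures with neither agent are called co-cultured. A further pair of libraries from uncultured gata2a+ runx1+ cells is given for orientation only. The labels do not say how positivity for the gate genes was read. Both agents were added together, so neither can be told apart from the other, and no dose or time in culture is given in the sources used here. The labels do not say that the libraries of a group came from separate fish or cultures, so the spread between them may be technical.

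IWR-1-endo inhibits tankyrases, poly(ADP-ribose) polymerases that mark Axin for destruction. Stabilised Axin keeps the beta-catenin destruction complex active, so transcription of Wnt target genes such as axin2 and lef1 is dampened. Thpo (thrombopoietin) is a cytokine that signals through Jak2 and STAT factors to targets such as the feedback inhibitors of the SOCS family and the Pim kinases. In vertebrate blood formation Thpo is known for maintaining stem cells and for producing megakaryocytes or, in fish, thrombocytes. ZKS cells are stromal cells of the zebrafish kidney that are used to support blood cells in culture.

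Messenger RNA was amplified by Quartz-seq, a PCR-based method for small samples, and the deposited unit is CPM, the reads of a gene scaled to a common library total. The depth of these libraries is unknown, since their values showed no step that could be read as 1 read. Treated libraries held 7834 and 7329 genes above 0, co-cultured libraries 7553 and 7676, and uncultured libraries 9712 and 9541. The 50 most abundant genes took 35.9% and 38.7% of the CPM in the treated, against 38.5% and 41.7% in the co-cultured libraries. A gene was tested where it reached 1 CPM in at least 2 of the 4 co-cultured and treated libraries, which 6557 genes did. Of these, 3298 genes (50.3%) were listed at 0 in at least 1 of the 4 libraries, and 2269 (34.6%) reached 1 CPM in all 4. Across the tested genes, which are not independent replicates, log2(CPM + 1) correlated between the treated libraries at 0.374 and between the co-cultured libraries at 0.426. The 4 correlations between a treated and a co-cultured library lay from 0.337 to 0.39. The spread depended on the level. The median absolute difference between replicates was 2.95 (treated) and 2.64 (co-cultured) on the log2 scale among the 3584 genes with a mean of 10 to 100 CPM, but 0.333 and 0.38 among the 123 genes with a mean of 1000 CPM or more. A value listed at 0 is therefore given as that and not as absence of the transcript.

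The gate genes were read first. The gene listed as GATA2 (ENSDARG00000059327), taken as gata2a because gata2b has an entry of its own, had 319.8 and 9.1 CPM in the treated, 33.1 and 128 CPM in the co-cultured and 45.3 and 178 CPM in the uncultured libraries. Every library held its transcript, and the groups overlapped. RUNX1, the other gate gene, was listed at 0 in both treated libraries and at 0.1 and 0 CPM in the co-cultured ones, against 6.3 and 6.1 CPM in the uncultured ones. For runx1 the identity of the cultured cells therefore rests on the labels. The progenitor surface gene cd34 was abundant in every library, with 2564 and 4000.0 CPM in the treated, 2093 and 2639 CPM in the co-cultured and 1301 and 1674 CPM in the uncultured libraries.

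Stromal transcripts of the co-culture partner were low. The 53 stromal genes summed to 419 and 606 CPM in the treated, 249.8 and 202 CPM in the co-cultured and 209.7 and 185 CPM in the uncultured libraries, against 41574 and 37242 CPM in the 2 libraries of ZKS cells. Of these 53 genes, 39 were listed at 0 in all 4 co-culture libraries. The EFEMP2 copy ENSDARG00000094324, a matrix fibulin with 27028 and 23545 CPM in the ZKS cells, was listed at 0 in every treated, co-cultured and uncultured library, as were the THBS4 copy ENSDARG00000020072 and both copies of STC2 and of PRRX1. The sum was nonetheless higher in both treated than in both co-cultured libraries. Most of both treated sums came from TIMP2 and MMP2. The copy of TIMP2 with ENSDARG00000061226, a metalloproteinase inhibitor, and counted also among the neutrophil genes, contributed with 282 and 260.3 CPM in the treated and 110.1 and 95.5 CPM in the co-cultured libraries. In the ZKS cells themselves this copy had only 69.4 and 56.4 CPM. MMP2, a gelatinase, contributed most in treated replicate 2, with 29.1 and 344 CPM in the treated and 18.6 and 98.1 CPM in the co-cultured libraries. It had 633 and 516 CPM in the ZKS cells. Whether stromal RNA differed between the treated and co-cultured libraries was not tested.

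No gene passed the test of treated against co-cultured libraries. With limma (moderated by a trend on level, fitted to TMM-scaled values as log2(CPM + 1) for 6 libraries together, 3 residual degrees of freedom) 0 of 6557 genes (0%) had an adjusted p under 0.05, and the smallest adjusted p was 0.245. At an unadjusted p under 0.05 there were 814 genes (12.4%), of which 332 (5.06%) were higher and 482 (7.35%) lower in the treated libraries. Among the alternatives tried, only a fit that shared the spread over all 12 libraries made many calls. It called 678 genes (10.3%), of which 272 (4.15%) were higher and 406 (6.19%) lower. Its spread came in part from ZKS cells, pericytes and sinusoids and need not be that of the compared libraries. No direction below is therefore a called change, and the text says higher or lower only of the libraries themselves. Both treated libraries lay above both co-cultured libraries for 1173 genes (17.9% of those tested), and both lay below for 1211 genes (18.5%). Among the 123 genes at a mean of 1000 CPM or more, where replicates lay closest, these shares were 24.4% and 29.3%. The median log2 change of all tested genes was -0.07 after scaling and 0.03 with CPM as deposited, so the scaling sets on which side of 0 this median lies. List medians below are to be read against it. In bulk libraries fewer cells of a type and less RNA per cell cannot be told apart.

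**Figure D1:**
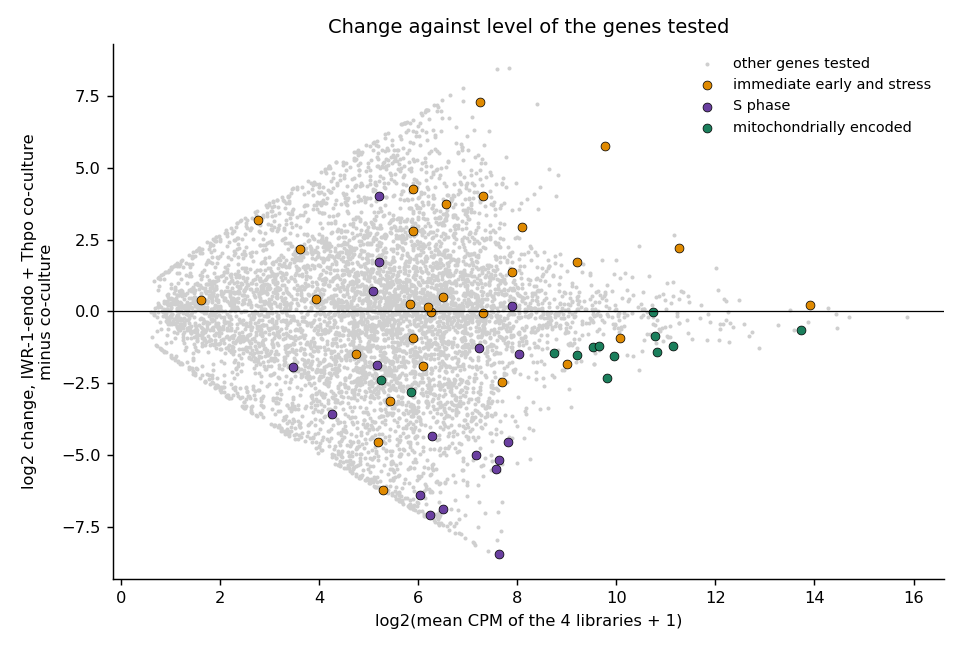
Each point is 1 of the 6557 tested genes, with its level on the x axis (log2 of the mean CPM of the 4 libraries plus 1) and its log2 change, treated minus co-cultured, on the y axis. The changes are widest among genes with a mean of 10 to 100 CPM, at a median absolute log2 change of 1.91. They are narrower under 10 CPM (0.937) and at 1000 CPM or more (0.486). All 13 mitochondrially encoded genes lie below 0, MT-CO3 only just, while FOS at 7.27 and DUSP1 at 5.76 stand at the top of the immediate early genes.

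Genes of Thpo and JAK-STAT signalling lay on both sides. The gene of the cytokine itself, thpo, was listed at 0 in all 6 libraries. Of 41 genes of Thpo and JAK-STAT signalling, 21 were tested; 6 of them were higher (28.6%, against 17.9% of all genes tested) and 4 lower (19%, against 18.5%) in both treated libraries, with none called. The median log2 change was -0.20, and it ran from -0.62 to 0.33 when 1 library was left out. Among those left out by the filter were STAT3, CISH and SOCS1, each listed at 0 in 3 of the 4 libraries. In treated replicate 1 alone STAT3 had 213 CPM, and the feedback inhibitor genes CISH and SOCS1 had 133 CPM and 109 CPM.

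The 2 listed copies of the receptor-bound kinase Jak2 lay on opposite sides. The jak2a copy had 0 and 50.6 CPM in the treated and 220.2 and 156 CPM in the co-cultured libraries, whereas the copy listed as JAK2 (ENSDARG00000018882) had 47.2 and 46.2 CPM in the treated and 0 and 24.4 CPM in the co-cultured libraries. In each case 1 library lay near or at 0. Reads could have been split between such copies by the counting. The 2 copies of SOCS3, which encodes a feedback inhibitor of JAK kinases, also parted. ENSDARG00000025428 had 295 and 239.9 CPM in the treated and 10.1 and 209 CPM in the co-cultured libraries, with 3635 and 4597 CPM in the uncultured ones. The treated values of this copy were both above the co-cultured ones, only narrowly above the second of them, and the log2 change was 2.34 ± 1.31 (SE; limma adjusted p = 0.552). ENSDARG00000026611 had 62.5 and 30.0 CPM in the treated and 488 and 128 CPM in the co-cultured libraries, with no overlap (-2.63 ± 0.89 on the log2 scale, limma adjusted p = 0.332).

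Survival and kinase genes that cytokine signalling is known to induce were higher in both treated libraries in 3 cases. The most abundant member of the list, mcl1a, which encodes an anti-apoptotic protein of the Bcl-2 family, had 1195 and 789 CPM in the treated, 383 and 213 CPM in the co-cultured and 975 and 850.2 CPM in the uncultured libraries. Its treated libraries stood clear of the co-cultured ones and close to the uncultured ones, with a log2 change of 1.63 ± 0.45 (limma adjusted p = 0.276). PIM1, a serine/threonine kinase, had 696 and 656 CPM in the treated and 498 and 533 CPM in the co-cultured libraries, a small but ordered difference. The related pim2 had 149 and 125 CPM in the treated and 0.1 and 104 CPM in the co-cultured libraries. Close relatives of these genes overlapped between the groups. PIM3 had 137.6 and 20.8 CPM in the treated and 105.7 and 81.9 CPM in the co-cultured libraries. The mcl1b gene had 66.5 and 1.7 CPM in the treated and 31.8 and 3.2 CPM in the co-cultured libraries. PTPN6, the phosphatase Shp1 that dampens cytokine receptors, had 117 and 373 CPM in the treated and 90.4 and 4.8 CPM in the co-cultured libraries. The other anti-apoptotic gene BCL2L1 (Bcl-xL) lay the other way, listed at 0 in both treated libraries and at 74.5 and 19.8 CPM in the co-cultured ones. The kinase gene jak3 overlapped between the groups, at 254 and 108 CPM in the treated and 413 and 112 CPM in the co-cultured libraries. The 2 STAT5 genes, the usual carriers of the Thpo signal, were each near 0 in most libraries: stat5a had 0 and 28.1 CPM in the treated and 0 and 1.5 CPM in the co-cultured libraries, and stat5b had 32 and 0.5 CPM in the treated and 0.3 and 0 CPM in the co-cultured libraries. The erythropoietin receptor gene EPOR overlapped, with 61.9 and 232 CPM in the treated and 244 and 65.3 CPM in the co-cultured libraries.

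The most direct transcriptional readouts of Wnt signalling were listed at or near 0. AXIN2 was listed at 0 in all 6 libraries, and LEF1 was listed at 4.6 CPM in treated replicate 2 and at 0 in the other 5. Of 34 Wnt target genes, 22 were listed at 0 in all 4 libraries and 7 were tested, of which 1 was higher (14.3%, against 17.9% of all genes tested) and 2 lower (28.6%, against 18.5%) in both treated libraries. The median log2 change was -0.11, but it ran from -1.45 to 2.55 when 1 library was left out, so single libraries set its sign. The 2 lower genes were also the most abundant of the list. CCND1, the G1 cyclin D1, had 114 and 102 CPM in the treated, 174 and 199 CPM in the co-cultured and 75.2 and 76.5 CPM in the uncultured libraries. The difference of -0.90 ± 0.80 on the log2 scale was about the size of its error (limma adjusted p = 0.775). MYC (ENSDARG00000045695), a growth regulator, had 85 and 552 CPM in the treated and 812 and 612 CPM in the co-cultured libraries, and treated replicate 2 lay near the lower co-cultured value. The other MYC copy, ENSDARG00000007241, was below the filter, with 0.1 and 124.8 CPM in the treated and 0.2 and 0 CPM in the co-cultured libraries. Reads could have been split between these copies, so the lower direction of MYC is uncertain. PPARD, a nuclear receptor for fatty acids, was the higher gene. It had 162 and 109.7 CPM in the treated and 6.0 and 0.4 CPM in the co-cultured libraries. Other listed targets overlapped: JUN, for example, had 172 and 0 CPM in the treated and 0 and 116 CPM in the co-cultured libraries.

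The machinery on which IWR-1-endo acts was sparsely detected. The 2 copies of TNKS, the tankyrase gene, were listed at 0 in all co-culture libraries except for 1.0 CPM of ENSDARG00000077650 in treated replicate 1. AXIN1, the scaffold of the destruction complex, had 143 and 1.1 CPM in the treated and 0.1 and 113 CPM in the co-cultured libraries, 1 high and 1 low library in each group. PARP1, the main nuclear poly(ADP-ribose) polymerase, overlapped at 125 and 0.2 CPM in the treated and 466 and 98.3 CPM in the co-cultured libraries. The exon junction gene CASC3 did so too, with 159.7 and 0.1 CPM in the treated and 291 and 86.6 CPM in the co-cultured libraries. The list of 12 genes holds tankyrases, Axin and other genes tied to poly(ADP-ribose). Of these, 5 were tested, and AXIN1 was the only tankyrase or Axin gene among them. In both treated libraries 1 was higher (20%, against 17.9% of all genes tested) and 0 lower (against 18.5%). Their median log2 change was 0.50, and it ran from -4.83 to 1.52 when 1 library was left out. The higher gene was AMOT, at 2.8 and 8.1 CPM in the treated and 0 in both co-cultured libraries, so the filter fixed its direction. Of the 40 Wnt pathway components, 13 were tested, with 3 higher (23.1%) and 2 lower (15.4%) in both treated libraries, shares near those of all genes tested. Their median log2 change was 0.28, and it ran from -0.62 to 1.57 when 1 library was left out. CTNNB1 (beta-catenin) was the most abundant, at 886 and 508 CPM in the treated and 616 and 179.5 CPM in the co-cultured libraries, which overlapped. The 2 tested GSK3 kinase genes, whose products phosphorylate beta-catenin, differed in direction. GSK3A had 0 and 6.1 CPM in the treated, 353 and 141 CPM in the co-cultured and 176 and 222 CPM in the uncultured libraries, a separation of -6.44 ± 1.39 on the log2 scale (limma adjusted p = 0.245). GSK3B had 102 and 53.1 CPM in the treated and 27.6 and 34.6 CPM in the co-cultured libraries. APC, another part of the complex, had 0 and 16.9 CPM in the treated and 70.9 and 48.6 CPM in the co-cultured libraries. BCL9L, a beta-catenin cofactor, overlapped at 83.6 and 273 CPM in the treated and 0 and 145 CPM in the co-cultured libraries. The ubiquitin ligase gene fbxw11a had 1 library at 0 in each group, with 127 and 0 CPM in the treated and 0 and 154 CPM in the co-cultured libraries. Among the receptors, FZD2 had 221 and 24.2 CPM in the treated libraries and was listed at 0 in both co-cultured and both uncultured ones. PORCN, which acylates Wnt ligands, had 185 and 6.7 CPM in the treated libraries and was listed at 0 in both co-cultured ones.

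Immediate early and stress genes were higher in sum in the treated libraries. Immediate early genes encode short-lived transcription factors, phosphatases and RNA-binding proteins that cells switch on within minutes of a stimulus, including cytokines, stress and cell handling. The 49 listed genes summed to 28447 and 27199 CPM in the treated, 20399 and 16258 CPM in the co-cultured and 34458 and 34319.5 CPM in the uncultured libraries. In sum the treated libraries thus stood between the other groups. HSP90AB1 gave most of the treated and co-cultured sums and TXNIP a further large part, so the sums do not describe the immediate early genes alone. Of 29 tested members, 11 were higher (37.9%, against 17.9% of all genes tested) and 4 lower (13.8%, against 18.5%) in both treated libraries. FOS and JUND were under 1 CPM in both co-cultured libraries, and SOD1 was listed at 0 in both treated ones. The filter fixed the direction of such members, so the shares rest in part on it. The median log2 change of the list was 0.39, and it ran from 0.28 to 0.67 when 1 library was left out. The 20 members below the filter include NR4A1, FOSB and EGR3, transcription factors listed at no more than 0.2 CPM in any co-culture of either kind. In the uncultured libraries NR4A1 had 488 and 825 CPM, FOSB 120.5 and 91.8 CPM and EGR3 114 and 184 CPM, so early genes parted in whether the treated libraries held them.

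FOS, the AP-1 subunit and prototype of the class, had 452 and 151 CPM in the treated, 0.9 and 0.3 CPM in the co-cultured and 2135 and 1706 CPM in the uncultured libraries. Both treated libraries were far above both co-cultured ones and below both uncultured ones, and the log2 change was 7.27 ± 0.98 (SE, n = 2 per group, limma adjusted p = 0.245). Its co-cultured values were under 1 CPM, so the pseudocount of 1 CPM sets part of that size. DUSP1, a phosphatase that switches MAP kinases off, had 1507 and 1900.2 CPM in the treated, 9.4 and 77.5 CPM in the co-cultured and 3556 and 3318 CPM in the uncultured libraries, with a log2 change of 5.76 ± 0.94 (limma adjusted p = 0.245). It passed the threshold when co-cultured replicate 2, the higher of the co-cultured libraries for this gene, was left out (limma adjusted p = 0.0295, log2 change 7.28). The egr1 gene, a zinc-finger factor, had 152 and 60.4 CPM in the treated, 22 and 0 CPM in the co-cultured and 589 and 509 CPM in the uncultured libraries. BTG2, an antiproliferative partner of the deadenylase complex, had 201 and 394 CPM in the treated, 12 and 19.1 CPM in the co-cultured and 1269.9 and 1252 CPM in the uncultured libraries (4.0 ± 0.76 on the log2 scale, limma adjusted p = 0.245). Of the 29 tested members, however, 14 overlapped between the treated and co-cultured libraries, some with treated replicates far apart. The JUNB copy ENSDARG00000074378 had 1.8 and 226.9 CPM in the treated and 0.9 and 5.0 CPM in the co-cultured libraries. The ier2a gene had 358.2 and 3.7 CPM in the treated and 326.2 and 130.9 CPM in the co-cultured libraries. FOS, DUSP1, egr1 and BTG2 shared an order, lowest in both co-cultured libraries and highest in both uncultured ones.

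Not all members kept that order. TXNIP (ENSDARG00000036107), an arrestin that restrains glucose uptake, was highest in the treated libraries, at 4669 and 3338 CPM against 1295 and 483 CPM in the co-cultured and 2251 and 1935 CPM in the uncultured libraries (2.19 ± 0.44 on the log2 scale, limma adjusted p = 0.245). ZFP36L1 (ENSDARG00000016154), which binds AU-rich messages and recruits deadenylases, had 811 and 1003 CPM in the treated, 176 and 356 CPM in the co-cultured and 369 and 229 CPM in the uncultured libraries. DUSP6, a phosphatase for ERK, had 285 and 415 CPM in the treated, 109.7 and 134 CPM in the co-cultured and 169 and 101 CPM in the uncultured libraries. HSP90AB1, a constitutive chaperone that gives most of the sum, differed by a small fold, at 17112 and 17513 CPM in the treated and 14928 and 12383 CPM in the co-cultured libraries (0.22 ± 0.09 on the log2 scale). A further set of members was lower in both treated libraries. One was atf4a, an integrated stress response factor, at 770.0 and 752 CPM in the treated and 1767 and 1013 CPM in the co-cultured libraries. The others were MYC, given above, the mitochondrial chaperonin gene HSPE1 and SOD1, the cytosolic superoxide dismutase. SOD1 was listed at 0 in both treated libraries and at 99.5 and 53.1 CPM in the co-cultured ones. HSPE1 had 0 and 6.6 CPM in the treated and 97.4 and 38.7 CPM in the co-cultured libraries.

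**Figure D2:**
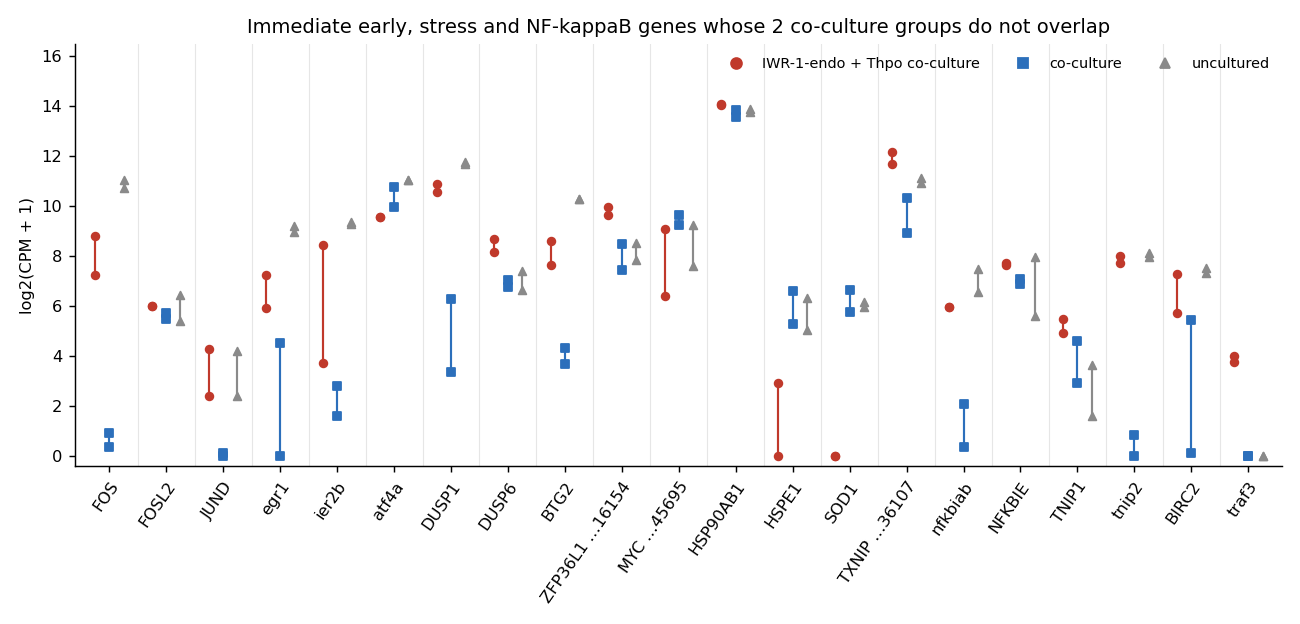
Values of each library on the log2(CPM + 1) scale for the immediate early, stress and NF-kappaB genes whose treated and co-cultured libraries do not overlap (red circles treated, blue squares co-cultured, grey triangles uncultured; a line joins the 2 libraries of a group). FOS, DUSP1 and BTG2 lie lowest in the co-cultured libraries with the treated libraries between them and the uncultured ones, while TXNIP is highest in the treated libraries; labels with digits carry the last 5 digits of the gene identifier.

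NF-kappaB is an inflammatory transcription factor whose targets include its own inhibitors. Listed genes of its subunits, inhibitors and related proteins were higher in both treated libraries in most tested cases. This list and the next were drawn up after the values had been seen, so their shares and medians are description only. They include tnip2 and CNOT11, which are among the 15 widest gaps on the higher side. Both passed the filter through the treated libraries alone and were bound to count as higher. The 20 genes summed to 760.0 and 902 CPM in the treated, 206 and 381 CPM in the co-cultured and 1096 and 1159 CPM in the uncultured libraries, and of 10 tested genes 6 were higher (60%, against 17.9% of all genes tested) and 0 lower (against 18.5%). Over the list the median log2 change of 1.39 ran from 0.40 to 2.96 when 1 library was left out. NFKBIE, an inhibitor and the most abundant member, had 199 and 210.3 CPM in the treated and 117 and 137 CPM in the co-cultured libraries. The inhibitor nfkbiab (I-kappaB-alpha) had 61.1 and 61.2 CPM in the treated, 0.3 and 3.3 CPM in the co-cultured and 179 and 94.8 CPM in the uncultured libraries. The tnip2 gene, whose product assists the ubiquitin-editing enzyme A20, had 260.3 and 212 CPM in the treated, 0 and 0.8 CPM in the co-cultured and 278 and 252 CPM in the uncultured libraries. BIRC2, a ubiquitin ligase that follows TNF receptors, had 53 and 156 CPM in the treated and 42.6 and 0.1 CPM in the co-cultured libraries, and nfkbib overlapped at 36.8 and 110.3 CPM in the treated and 25.2 and 86 CPM in the co-cultured libraries. The subunits themselves were low or overlapped: nfkb2 had 4.8 and 7.1 CPM in the treated and 0.8 and 14.9 CPM in the co-cultured libraries, and RELA was at or under 0.1 CPM in all 4.

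Genes of the CCR4-NOT complex, which shortens the poly(A) tails of messages, and of its recruiters summed to 3251 and 4356 CPM in the treated, 1399.5 and 1388 CPM in the co-cultured and 3921 and 3117 CPM in the uncultured libraries. Of 16 tested members, 8 were higher (50%, against 17.9% of all genes tested) and 1 lower (6.25%, against 18.5%) in both treated libraries. These shares, too, come from a list drawn up with the values known. Their median log2 change of 0.91 ran from 0.73 to 1.91 when 1 library was left out. CNOT9, a core subunit, had 243 and 190.4 CPM in the treated, 16.9 and 1.9 CPM in the co-cultured and 118 and 79.1 CPM in the uncultured libraries. CNOT11 had 238 and 672 CPM in the treated and 0 and 0.1 CPM in the co-cultured libraries, and CNOT3 was the lower member, with 22.3 and 100.5 CPM in the treated and 141 and 170.3 CPM in the co-cultured libraries. BTG1, an antiproliferative relative of BTG2, had the smallest SE of the list, with 1241 and 1236 CPM in the treated and 709.5 and 662 CPM in the co-cultured libraries (0.72 ± 0.34 on the log2 scale, limma adjusted p = 0.453). BTG2 and ZFP36L1 belong to both this list and the immediate early list.

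**Figure D3:**
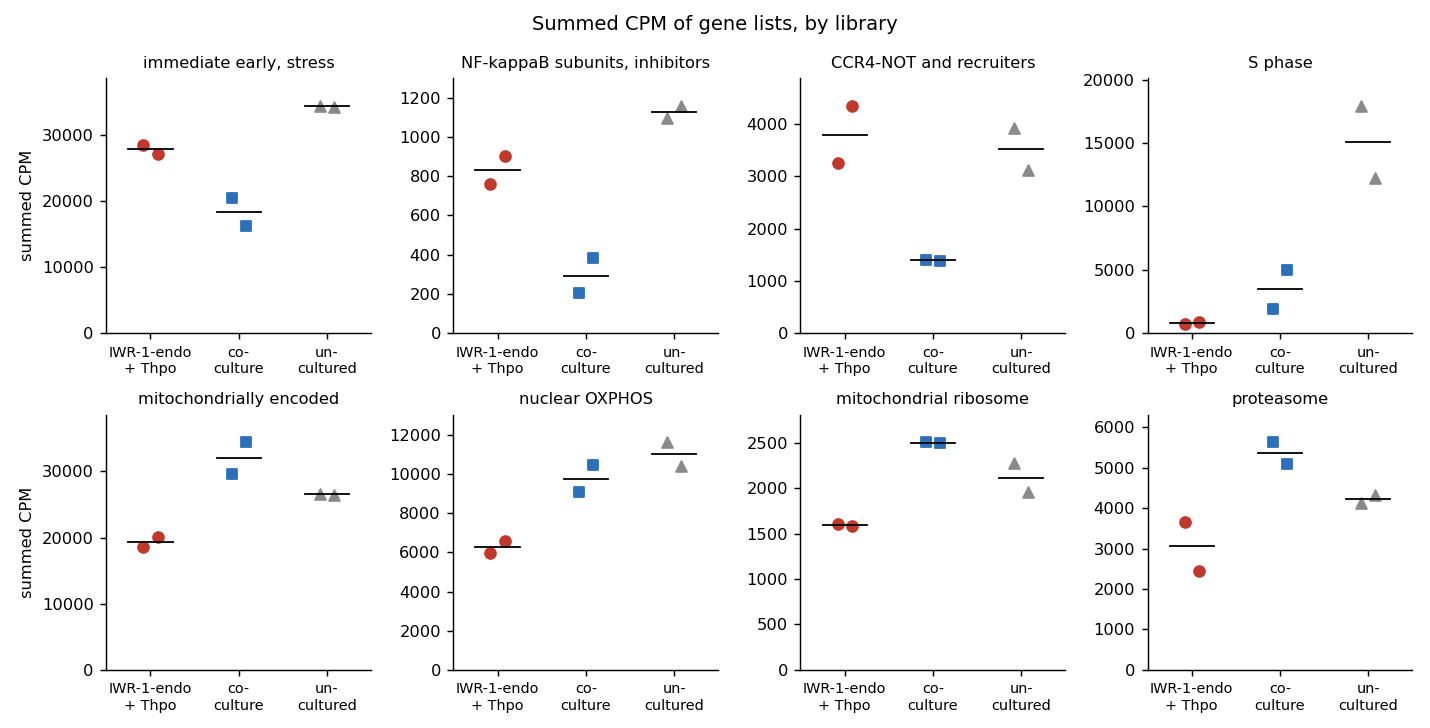
Summed CPM of all listed members of 8 gene lists, 1 panel per list, with 1 point per library and a bar at the mean of the 2 libraries of a group; y axes start at 0. The lists shown were chosen among those with separated sums. Some other sums, such as those of glycolysis and ribosome biogenesis, overlapped. Further lists that are not shown separated as well. Ribosomal protein, citric acid cycle, translation factor and housekeeping sums were lower in both treated libraries. Sums of stem and progenitor transcription factors and of p53, lymphoid and mast cell genes were among those that were higher. The NF-kappaB, CCR4-NOT, mitochondrial ribosome and proteasome lists were drawn up after the values had been seen. The sums of the list of immediate early and stress genes, of NF-kappaB and of CCR4-NOT are higher in both treated than in both co-cultured libraries. The other 5 plotted sums are lower. In the treated and co-cultured libraries the chaperone gene HSP90AB1 gives most of the immediate early and stress sum. S phase genes stand at 698 and 903 CPM in the treated against 1894 and 5007 CPM in the co-cultured libraries.

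DNA replication genes were lower in the treated libraries. The 48 S phase genes, which build the replicative helicase, load the sliding clamp and make nucleotides, summed to 698 and 903 CPM in the treated, 1894 and 5007 CPM in the co-cultured and 17951 and 12261 CPM in the uncultured libraries. The co-cultured replicates themselves differed, but both were above both treated libraries. Of 18 tested members 11 were lower (61.1%, against 18.5% of all genes tested) and 1 higher (5.56%, against 17.9%) in both treated libraries, with a median log2 change of -3.95. Without co-cultured replicate 2 that median was -2.35. MCM5, RPA2, RFC5, PCNA and PRIM1 were under 1 CPM in both treated libraries and passed the filter through the co-cultured ones alone. Such members were bound to count as lower, so the share and the median rest in part on the filter. The 30 members below the filter had at most 1 library at 1 CPM or more, and 9 of the 48 were at 0 in all 4 libraries.

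Of the 6 subunits of the helicase ring, 4 were lower in both treated libraries, against 18.5% of all genes tested. They include MCM5, whose direction the filter fixed. MCM5 was listed at 0 in both treated libraries, with 211 and 575 CPM in the co-cultured and 986 and 246 CPM in the uncultured libraries. MCM6 (ENSDARG00000057683) had 52.4 and 0.2 CPM in the treated and 261 and 438 CPM in the co-cultured libraries. MCM2 had 0.4 and 54.7 CPM in the treated and 159 and 579.9 CPM in the co-cultured libraries. MCM4 had 0.1 and 193 CPM in the treated and 221 and 478 CPM in the co-cultured libraries, so 1 treated library of each lay near 0 while the other came closer to the co-cultured values. The 2 remaining subunits overlapped: MCM7 had 179 and 243 CPM in the treated and 58.5 and 469 CPM in the co-cultured libraries, and MCM3 had 0.2 and 107 CPM in the treated and 0.4 and 487 CPM in the co-cultured libraries.

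Among single-strand binding and clamp-loading genes, 4 of the 5 tested were lower in both treated libraries, against 18.5% of all genes tested. For RPA2 and RFC5 the filter fixed the direction. RPA2 had 0.1 and 0.1 CPM in the treated, 135 and 162 CPM in the co-cultured and 184 and 206 CPM in the uncultured libraries. RFC2 had 0.1 and 1.3 CPM in the treated and 128 and 131 CPM in the co-cultured libraries, and RFC5 had 0.8 and 0.1 CPM in the treated and 263 and 95.8 CPM in the co-cultured libraries. The remaining clamp-loader gene RFC4 overlapped, at 2.0 and 0 CPM in the treated and 0 and 38.1 CPM in the co-cultured libraries. RPA1, the most abundant member, separated by less, at 206 and 83.2 CPM in the treated and 215 and 539.9 CPM in the co-cultured libraries (-1.5 ± 0.77 on the log2 scale, limma adjusted p = 0.508). PCNA, the sliding clamp, rested on 1 library, with 0.5 and 0.3 CPM in the treated, 2.3 and 571 CPM in the co-cultured and 3249.9 and 1260.2 CPM in the uncultured libraries. RRM1, a subunit of ribonucleotide reductase, was the exception on the higher side, at 142 and 1.3 CPM in the treated and 0 and 0.1 CPM in the co-cultured libraries. Mitotic genes were mostly below the filter: of 54 G2/M genes 7 were tested, with 0 higher (against 17.9% of all genes tested) and 2 lower (28.6%, against 18.5%). The proliferation gene mki67 was at most 0.1 CPM in every co-culture library, against 164 and 138 CPM in the uncultured ones, and CCNB1 (cyclin B1) was likewise, against 85.9 and 117 CPM. The most abundant, tubb4b, a beta-tubulin, had 286 and 1431 CPM in the treated and 1775 and 1699 CPM in the co-cultured libraries. The chromatin gene hmgb2b overlapped, at 288 and 562 CPM in the treated and 358 and 402 CPM in the co-cultured libraries.

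Mitochondrially encoded transcripts, the core subunits of the respiratory chain made inside the organelle, were lower in the treated libraries, and their share of lower genes exceeded that of every other list described here. The 13 genes, all tested, summed to 18609 and 20024 CPM in the treated, 29554 and 34394 CPM in the co-cultured and 26577 and 26492 CPM in the uncultured libraries. Of the 13, 11 were lower in both treated libraries (84.6%, against 18.5% of all genes tested) and 0 were higher. MT-CO1, a subunit of complex IV, had 10503 and 11769 CPM in the treated, 15151 and 16847 CPM in the co-cultured and 10287 and 10569.9 CPM in the uncultured libraries (-0.65 ± 0.14 on the log2 scale, limma adjusted p = 0.245). MT-ND4, a subunit of complex I, had 910.0 and 1184 CPM in the treated, 2516 and 2572 CPM in the co-cultured and 2699.5 and 2353 CPM in the uncultured libraries (-1.42 ± 0.27, limma adjusted p = 0.245). MT-CYB, the cytochrome b of complex III, had 1347 and 1602 CPM in the treated and 2966 and 3171 CPM in the co-cultured libraries (-1.19 ± 0.24, limma adjusted p = 0.245). These 3 genes parted by several times their replicate spread. MT-CO2, also of complex IV, lay closer, with 1729.5 and 984 CPM in the treated and 1806 and 2537 CPM in the co-cultured libraries. The proton channel gene of ATP synthase, MT-ATP6, had 449.8 and 223 CPM in the treated, 1291 and 1631 CPM in the co-cultured and 1599.7 and 1476 CPM in the uncultured libraries (-2.32 ± 0.43, limma adjusted p = 0.245). The exceptions were MT-CO3, with 1277 and 2249 CPM in the treated and 1229.6 and 2058 CPM in the co-cultured libraries, and MT-ND3, which had 0.6 and 55.1 CPM in the treated and 47.7 and 44.8 CPM in the co-cultured libraries. In the treated libraries MT-CO1 was close to the uncultured level, whereas MT-ND4 and MT-ATP6 were below it. The median log2 change of -1.42 stayed between -1.46 and -1.17 when any 1 library was left out.

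**Figure D4:**
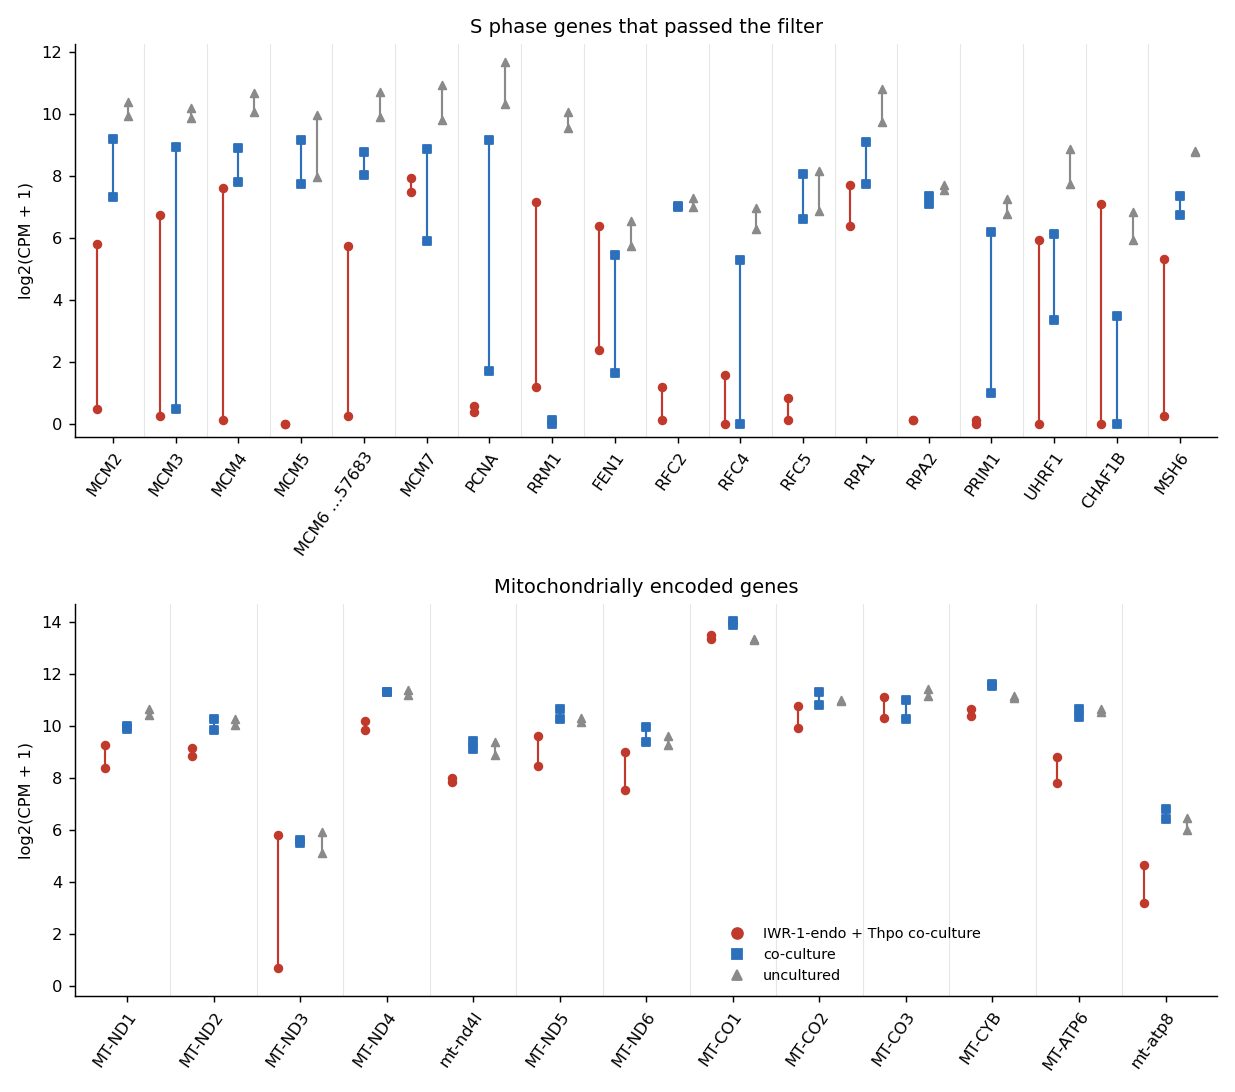
Values of each library on the log2(CPM + 1) scale for the 18 S phase genes that passed the filter (upper panel) and the 13 mitochondrially encoded genes (lower panel), with treated (red circles), co-cultured (blue squares) and uncultured (grey triangles) libraries joined by a line within a group. S phase genes often have 1 library near 0, as MCM2 in treated replicate 1, while most mitochondrial genes, such as MT-CO1 and MT-CYB, have closer replicates; MT-ND3, at 0.6 and 55.1 CPM, has the widest gap between the treated libraries.

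Nuclear genes of oxidative phosphorylation, whose products join those subunits, were lower in sum, with more spread. The 77 genes summed to 5949.9 and 6599.9 CPM in the treated, 9080.5 and 10464 CPM in the co-cultured and 11624 and 10402 CPM in the uncultured libraries. Of 46 tested, 21 were lower (45.7%, against 18.5% of all genes tested) and 5 higher (10.9%, against 17.9%) in both treated libraries, with a median log2 change of -1.03 that ranged from -2.66 to -0.50 when 1 library was left out. SDHA, the flavoprotein of complex II, had 7.3 and 9.8 CPM in the treated, 231 and 398 CPM in the co-cultured and 438 and 321 CPM in the uncultured libraries (-5.12 ± 0.89 on the log2 scale, limma adjusted p = 0.245). In complex III, UQCRC2 had 1.8 and 13 CPM in the treated and 314 and 302 CPM in the co-cultured libraries and CYC1 (cytochrome c1) had 47.2 and 13.7 CPM in the treated and 316 and 289.6 CPM in the co-cultured libraries. Its Rieske protein gene UQCRFS1 lay the other way, at 194 and 221 CPM in the treated and 45.3 and 82.9 CPM in the co-cultured libraries. So did the second core copy uqcrc2a, with 121 and 208 CPM in the treated and 26.7 and 60.0 CPM in the co-cultured libraries. The copies UQCRC2 and uqcrc2a could share reads. ATP5F1A, the alpha subunit of ATP synthase and the most abundant member, had 1567 and 1527 CPM in the treated and 2121 and 3184 CPM in the co-cultured libraries. The catalytic beta subunit gene ATP5F1B overlapped, at 1335 and 1949.8 CPM in the treated and 2792 and 1709.5 CPM in the co-cultured libraries.

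Further lists of the organelle and of protein turnover, added after the values had been seen, were lower in sum. Mitochondrial ribosome genes summed to 1608 and 1584 CPM in the treated, 2508 and 2500.0 CPM in the co-cultured and 2278 and 1958 CPM in the uncultured libraries, with 15 of 45 tested genes lower and 0 higher, against 18.5% lower and 17.9% higher of all genes tested. The most abundant members, MRPS2, MRPL38 and MRPL13, overlapped between the groups. MRPS18A, of the small subunit, had 0 and 0.6 CPM in the treated and 158 and 182 CPM in the co-cultured libraries. It passed the filter through the co-cultured libraries alone and was bound to count as lower, so the share rests in part on the filter. Genes of the citric acid cycle and of pyruvate entry summed to 2742 and 2967 CPM in the treated and 3927 and 4622 CPM in the co-cultured libraries, with 7 of 22 lower (31.8%, against 18.5%) and 1 higher (4.55%, against 17.9%). DLAT, a subunit of pyruvate dehydrogenase, had 3.5 and 8.8 CPM in the treated and 213 and 246 CPM in the co-cultured libraries, and MPC1, a subunit of the mitochondrial pyruvate carrier, had 0 and 4.9 CPM in the treated and 119 and 128 CPM in the co-cultured libraries. IDH2, the mitochondrial isocitrate dehydrogenase, overlapped between the groups, with 984 and 542 CPM in the treated and 318 and 1049.7 CPM in the co-cultured libraries. Proteasome genes summed to 3659 and 2447 CPM in the treated and 5629.7 and 5083 CPM in the co-cultured libraries. Of 38 tested, 10 were lower (26.3%, against 18.5%) and 3 higher (7.89%, against 17.9%). PSMC3, the most abundant, overlapped, with 486 and 0.1 CPM in the treated and 507.4 and 279.8 CPM in the co-cultured libraries. PSMA8, PSMB8 and PSMB1, the next most abundant, overlapped too. PSMD1, chosen after its values were seen, was among the lower members, at 155 and 69.7 CPM in the treated and 286 and 396 CPM in the co-cultured libraries. Glycolysis genes did not separate: their sums were 9882 and 5687 CPM in the treated and 7947 and 8793 CPM in the co-cultured libraries, with 1 of 16 tested genes higher (6.25%) and 2 lower (12.5%), both below the shares of all genes tested. ALDOA, the aldolase and the most abundant, had 3513 and 1388 CPM in the treated and 2859 and 1766 CPM in the co-cultured libraries.

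Cytosolic ribosomal protein genes, among the most abundant transcripts of any cell, were mostly unseparated or modestly lower. The 85 genes summed to 138449.7 and 156345 CPM in the treated, 162334 and 207692 CPM in the co-cultured and 180781 and 179555 CPM in the uncultured libraries. Of 81 tested, 24 were lower (29.6%, against 18.5% of all genes tested), 4 were higher (4.94%, against 17.9%) and 53 overlapped. The lower share was near the 29.3% of the 123 genes at a mean of 1000 CPM or more. It was also near the 27.8% of housekeeping genes, so it does not set ribosomal genes apart. The median log2 change was -0.41 (-0.28 with CPM as deposited), against -0.36 for housekeeping genes. RPL4 had 4341 and 4882 CPM in the treated and 8120.3 and 12934 CPM in the co-cultured libraries (-1.28 ± 0.26 on the log2 scale, limma adjusted p = 0.245). The rpl7a gene had 5294 and 5733 CPM in the treated and 8042 and 8387 CPM in the co-cultured libraries (-0.70 ± 0.14, limma adjusted p = 0.245). RPLP0, the most abundant, overlapped, with 19701 and 25166 CPM in the treated and 20000.5 and 24104 CPM in the co-cultured libraries. Where ribosomal protein genes have near-identical copies, the split of reads between them is uncertain.

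Translation factors showed a similar mixture, with 14 of 49 tested genes lower (28.6%, against 18.5% of all genes tested) and 5 higher (10.2%, against 17.9%). The lower share was again near the 27.8% of housekeeping genes. The elongation factor eef1a1l1 had 18541 and 19517 CPM in the treated and 28398 and 23282 CPM in the co-cultured libraries (-0.56 ± 0.09 on the log2 scale, limma adjusted p = 0.245). EIF3I lay the other way, at 2063 and 2267 CPM in the treated and 1489 and 1297 CPM in the co-cultured libraries. Ribosome biogenesis genes, a list added after the values had been seen, differed between sum and count. Their sums of 22023 and 26318 CPM in the treated and 22886 and 25905 CPM in the co-cultured libraries overlapped, yet 42 of 107 tested genes were lower (39.3%, against 18.5% of all genes tested) and 11 higher (10.3%, against 17.9%). The median log2 change was -1.21, and it ran from -1.69 to -0.74 when 1 library was left out. Any member under 1 CPM in both treated libraries was bound to count as lower. These shares and the median are description only. Several abundant members were higher. NSA2, a factor of the large subunit, had 3130.1 and 3065 CPM in the treated and 1269.7 and 1540.1 CPM in the co-cultured libraries. RSL24D1, another factor of the large subunit, had 3295 and 3171 CPM in the treated and 1671 and 1969.9 CPM in the co-cultured libraries. The helicase gene DDX21 had 1924 and 2678 CPM in the treated and 639.7 and 1242 CPM in the co-cultured libraries. The core proteins of box C/D particles, which methylate ribosomal RNA, lay lower. NOP58 had 97.6 and 228 CPM in the treated and 1005 and 785 CPM in the co-cultured libraries (-2.69 ± 0.58 on the log2 scale, limma adjusted p = 0.245), and the methyltransferase gene FBL had 292 and 335 CPM in the treated and 1041 and 621 CPM in the co-cultured libraries.

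Stem and progenitor transcription factors went both ways. Of 39 listed genes 23 were tested, of which 8 were higher (34.8%, against 17.9% of all genes tested), 4 lower (17.4%, against 18.5%) and 11 overlapped, with a median log2 change of 0.10 that ran as high as 1.1 when 1 library was left out. The other gata2 copy, gata2b, which marks stem and progenitor cells in fish, had 432 and 134 CPM in the treated, 66 and 20.7 CPM in the co-cultured and 325 and 85.5 CPM in the uncultured libraries. Both treated libraries were higher than both co-cultured ones, and the uncultured libraries overlapped with the treated ones and lay above both co-cultured ones (2.54 ± 1.14 on the log2 scale, limma adjusted p = 0.437). The hhex gene, a homeobox factor needed by stem and lymphoid progenitor cells in mice, had 307 and 139 CPM in the treated, 62.8 and 64.5 CPM in the co-cultured and 20.2 and 70.2 CPM in the uncultured libraries. BMI1 (ENSDARG00000006010), a Polycomb protein known for self-renewal, had 176 and 96.7 CPM in the treated, 11.3 and 5.6 CPM in the co-cultured and 9.3 and 39.6 CPM in the uncultured libraries. GFI1 (ENSDARG00000044457), a repressor of the granulocyte and stem cell programmes, had 1345 and 533 CPM in the treated and 445 and 204 CPM in the co-cultured libraries, while its copy gfi1aa was lower, at 142 and 0 CPM in the treated and 516 and 358 CPM in the co-cultured libraries. These copies may share reads.

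CEBPB, a factor of emergency granulopoiesis, gave the largest difference relative to its error among these regulators. It had 3507 and 1269 CPM in the treated, 308 and 523 CPM in the co-cultured and 3763 and 5931 CPM in the uncultured libraries (2.26 ± 0.55 on the log2 scale, limma adjusted p = 0.245). Its relative CEBPA, the factor of steady granulopoiesis, overlapped at 2005 and 1219 CPM in the treated and 1409.9 and 1267 CPM in the co-cultured libraries. MYB had 227 and 315 CPM in the treated and 184 and 137 CPM in the co-cultured libraries, and IKZF1 (Ikaros) had 1074 and 806 CPM in the treated and 166 and 768 CPM in the co-cultured libraries, both with 1 co-cultured library close to the lower treated one. On the lower side LMO2, the adaptor that joins Gata and Tal1 complexes, had 285 and 300.0 CPM in the treated and 497 and 457 CPM in the co-cultured libraries. CBFB, the binding partner of Runx1, had 109 and 82.6 CPM in the treated and 142 and 260.0 CPM in the co-cultured libraries. The hlfa gene, whose mammalian counterpart marks stem cells, was listed at 0 in both treated libraries and at 47.7 and 38.3 CPM in the co-cultured ones. FLI1 (ENSDARG00000054632), TAL1 and MEIS1 (ENSDARG00000012078), other abundant factors, overlapped between the groups. FLI1, the most abundant, had 2103 and 2797 CPM in the treated and 2740.0 and 1944 CPM in the co-cultured libraries. TAL1 had 298 and 326 CPM in the treated and 377 and 242 CPM in the co-cultured libraries.

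**Figure D5:**
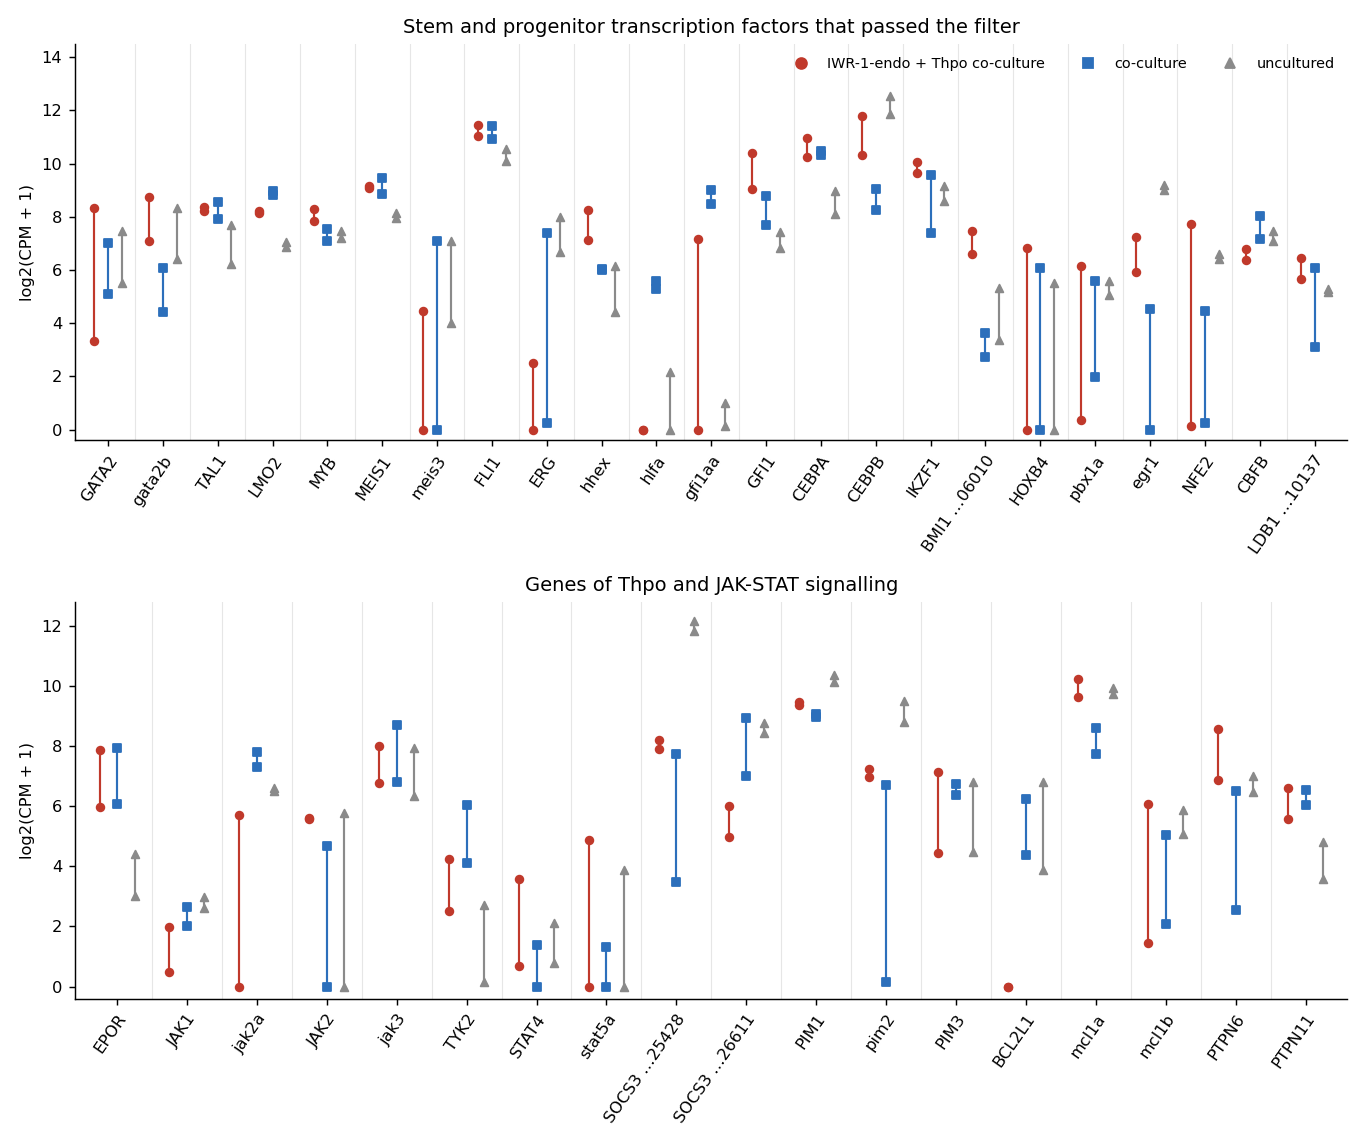
Values of each library on the log2(CPM + 1) scale for the 23 tested stem and progenitor transcription factors (upper panel) and 18 of the 21 tested genes of Thpo and JAK-STAT signalling (lower panel), in treated (red circles), co-cultured (blue squares) and uncultured (grey triangles) libraries joined by a line within a group. Treated values of CEBPB, BMI1, hhex and mcl1a lie wholly above the co-cultured ones, those of jak2a and hlfa wholly below, and jak3 overlaps.

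The list of surface and other genes of blood progenitors separated in few cases. Of 23 genes 14 were tested, 2 higher (14.3%, against 17.9% of all genes tested) and 4 lower (28.6%, against 18.5%) in both treated libraries. The lower genes were LCP1, rac2, hmga1a and MCM5. MCM5 was counted also among the S phase genes, and the filter fixed its direction, so the lower share is not one of surface genes alone. LCP1, the leukocyte actin bundler L-plastin, had 954 and 1855 CPM in the treated and 2642 and 2382 CPM in the co-cultured libraries. CXCR4 (ENSDARG00000041959), the receptor of the retention chemokine Cxcl12, overlapped at 865 and 559 CPM in the treated and 286 and 684 CPM in the co-cultured libraries. ANGPT1, a ligand of the Tie2 receptor, had 189 and 489 CPM in the treated and 143 and 0.2 CPM in the co-cultured libraries. The other higher gene was ptprc (CD45), a leukocyte phosphatase, which had 486 and 699 CPM in the treated and 437 and 452 CPM in the co-cultured libraries.

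Most markers of maturing lineages were below the filter, and those tested went both ways. Their counts are to be read against the 17.9% of all genes tested that were higher and the 18.5% that were lower. Of 22 thrombocyte genes, the lineage for which Thpo is best known, 8 were tested with 0 higher and 0 lower; their sums were 2809.6 and 3467 CPM in the treated and 3095 and 2479.5 CPM in the co-cultured libraries, and most of each sum was FLI1. The defining gene itga2b (CD41) was listed at 0 in all 4 co-culture libraries, against 36.9 and 63.5 CPM in the uncultured ones. Of 28 erythroid genes 4 were tested, with 0 higher and 0 lower; hemgn, a nuclear factor of erythroid cells, had 2.7 and 103 CPM in the treated and 0 and 32.4 CPM in the co-cultured libraries. Neutrophil genes split evenly, with 3 higher and 3 lower of 11 tested (27.3% each). NCF1, an oxidase subunit, had 550.3 and 139.7 CPM in the treated and 13.8 and 248 CPM in the co-cultured libraries, and cyba, its membrane partner, had 4.9 and 203 CPM in the treated and 227 and 336 CPM in the co-cultured libraries. Of 10 tested macrophage genes 1 was higher (10%) and 2 lower (20%), and cd74a, the invariant chain of antigen presentation, had 6314 and 4653 CPM in the treated and 2942 and 4986 CPM in the co-cultured libraries. Lymphoid genes were higher in 4 of 7 tested members (57.1%) and lower in 0, but the 4 were IKZF1, ptprc, SYK and SWAP70, which other blood cells also transcribe. SYK, a signalling kinase, had 107 and 209 CPM in the treated and 87.7 and 91.9 CPM in the co-cultured libraries. Of 5 tested eosinophil and mast cell genes 2 were higher (40%), gata2b and s100a10b, and 0 lower. The s100a10b gene was listed at 0 in both co-cultured libraries, so the filter fixed its direction. Endothelial and renal genes had 2 tested members each, of which 0 were higher, and 1 renal gene, SLC20A1 (ENSDARG00000010641), was lower, with 2.6 and 209.7 CPM in the treated and 226 and 238 CPM in the co-cultured libraries. Interferon-related genes had 1 of 11 higher (9.09%) and 0 lower, and p53 target and cell cycle inhibitor genes 4 of 17 higher (23.5%) and 1 lower (5.88%). BTG1 and BTG2, given above, are among these 4. Another of the 4, GADD45A, a stress sensor, had 39.4 and 45.9 CPM in the treated, 0.2 and 0 CPM in the co-cultured and 103 and 34.1 CPM in the uncultured libraries, while cdkn1a was listed at 0 in all 4 co-culture libraries. The last of the 4 was GADD45B (ENSDARG00000027744), with 20.1 and 8.4 CPM in the treated and 0.3 and 0.3 CPM in the co-cultured libraries. GADD45A and GADD45B passed the filter through the treated libraries alone, so both were bound to count as higher. Cholesterol synthesis genes were tested in 5 of 27 cases, of which 2 were higher (40%) and 0 lower. Housekeeping genes had 5 of 36 higher (13.9%) and 10 lower (27.8%), with a median log2 change of -0.36 that ran from -0.55 to -0.11 when 1 library was left out.

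The genes that parted the groups most widely on the log2(CPM + 1) scale, among those at 10 CPM or more in both libraries of the higher group, were taken next. There were 809 candidates on the higher and 859 on the lower side. The 15 widest on the higher side were CRELD1, TTC9C, CNOT11, PDP1, ap5b1, RNF103, ARHGAP15, parla, parp12b, tnip2, PHF21A, UBASH3B, spsb4b, ifi27.7 and spint1a. All had at most 0.8 CPM in either co-cultured library, so no fold is given. PDP1, the phosphatase that switches pyruvate dehydrogenase on, had 206 and 191 CPM in the treated libraries and was listed at 0 in the co-cultured ones. UBASH3B, a phosphatase of the Sts family that restrains tyrosine kinase signalling, had 110.5 and 173 CPM in the treated and 94.7 and 133 CPM in the uncultured libraries and was listed at 0 in the co-cultured ones. RNF103, an endoplasmic reticulum ubiquitin ligase, had 161 and 154 CPM in the treated libraries, with 0 in the co-cultured and 0.1 and 0 CPM in the uncultured ones. The uncultured libraries were thus near the treated ones for UBASH3B and near the co-cultured ones for RNF103.

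The 15 widest on the lower side were CLNS1A, DDX52, PPAN, DPP3, MCM5, UBE2G2, CCDC85C, zbtb8b, BLOC1S6, ahrra, GPX4, PIK3IP1, IBA57, rbm12bb and pdcd11, each with at most 0.8 CPM in either treated library, so no fold is given here either. DDX52, PPAN and pdcd11 serve ribosome biogenesis and MCM5 DNA replication. All 15 were under 1 CPM in both treated libraries, so the filter fixed their direction. They add no separate evidence to the shares of the lists given above. CLNS1A, a chaperone of spliceosomal particles, was listed at 0 in both treated libraries and had 276 and 283 CPM in the co-cultured and 216 and 86.2 CPM in the uncultured libraries. GPX4, the enzyme that reduces lipid peroxides, had 0.3 and 0.8 CPM in the treated, 277 and 487 CPM in the co-cultured and 128 and 125 CPM in the uncultured libraries. The repressor gene ahrra, a target of the aryl hydrocarbon receptor, had 178 and 269.9 CPM in the co-cultured libraries alone, with 0 and 0.1 CPM in the treated and 0.1 and 0 CPM in the uncultured ones. PIK3IP1, an inhibitor of PI3 kinase, followed the same layout, with 0.1 and 0 CPM in the treated, 163 and 194 CPM in the co-cultured and 0 and 2.0 CPM in the uncultured libraries.

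The 10 genes with the highest mean over the 4 libraries were actb2, eef2b, eef1a1l1, RPLP0, SLC25A5, HSP90AB1, RPL3, MT-CO1, RACK1 and EEF1G. The cytoskeletal actin gene actb2 had 61010.5 and 55167 CPM in the treated and 65743 and 56301 CPM in the co-cultured libraries (-0.20 ± 0.05 on the log2 scale, limma adjusted p = 0.245), and the groups overlapped in CPM. SLC25A5, the mitochondrial ADP/ATP carrier, overlapped at 18458 and 24018 CPM in the treated and 21459.5 and 14732 CPM in the co-cultured libraries, unlike the mitochondrially encoded genes. RACK1, a ribosomal scaffold, had 9476 and 9916 CPM in the treated and 10311 and 19169 CPM in the co-cultured libraries. Within this group HSP90AB1 was higher and eef1a1l1, MT-CO1 and RACK1 were lower in both treated libraries, and the other 6 overlapped.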

How the data were processed

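Adult wild-type kidney cells were measured by Quartz-seq in 12 libraries, of which 4 were compared and 2 uncultured ones joined the fit. The authors deposited CPM per gene and library for 32047 identifiers, of which 28978 carry a symbol; per the submitters' processing notes, HISAT2 2.1.0, Subread 1.6.4 and GRCz11 were used, with settings not given in the sources used here. No raw counts were at hand, so no count model was run; no molecular identifiers are named in the sources used here, and depth-based intervals could not be given. No columns of other samples were present. limma 3.58.1 (R 4.3.3; trend on level) tested log2(CPM + 1) after scaling by TMM factors (trimmed mean of M values, computed on the CPM), with Benjamini-Hochberg adjustment over 6557 genes and a threshold of 0.05; log2 changes on this scale understate those of low genes. The script was tested on simulated data. A gene is called higher or lower where both treated libraries lie above or below both co-cultured ones in CPM. Where a gene was under 1 CPM in both libraries of 1 group, it passed the filter through the other group alone, which fixed its direction. Symbols are as deposited, many of them human; where a symbol has several identifiers and none is printed, the other copies were under 1 CPM in the 4 libraries.

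Genes are named as the 15 widest gaps in each direction at 10 CPM or more, the 10 of highest mean, members of the signalling and stem cell lists, and up to 4 most abundant members of other lists; further members, such as FOS, BTG2, RPA2 and SDHA, were chosen after their values were seen. Some members of these lists are not reported here. The members and lists were chosen with earlier results of these data known. Alternatives covered scaling, pseudocount, filter, samples in the fit, the replicate block, the trend and each library left out. The labels give the same replicate numbers in each group, but nothing in them ties the numbers together.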

Additional observations from a re-analysis of the deposited data

How the results depend on the processing

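The count of 0 called genes kept its value under scaling by upper-quartile factors or none, pseudocounts of 0.1 and 5 CPM, both other filters, the 4 libraries alone and no trend, with 648 to 905 genes at an unadjusted p under 0.05. With all 12 libraries in 1 fit limma called 678 genes, and the residual degrees of freedom then were 6 in place of 3. The libraries added were of ZKS cells, pericytes and sinusoids. Their spread need not be that of the compared libraries, so these calls do not stand for the comparison. Leaving out each library in turn gave 0 to 1 called gene, and the 1 was DUSP1 without co-cultured replicate 2. With the replicate number as a block, 0 genes were called (683 at an unadjusted p under 0.05, smallest limma adjusted p 0.429), so the block changed no call. The deviations of same-numbered treated and co-cultured libraries correlated at 0.00115. With replicates this far apart, that value cannot tell whether the numbers pair the samples. Across these fits the median log2 change of all genes ran from -0.39 to 0.14. Genes wholly higher numbered 1096 and wholly lower 1290 after TMM scaling of the CPM, and 809 and 859 with a filter of 10 CPM in 2 of the 4 libraries. The S phase median was -5.58 with a pseudocount of 0.1 CPM and -2.69 with one of 5 CPM, and it lay between -4.60 and -2.35 when 1 library was left out; the pseudocount sets how far a value near 0 lies from the others. Of 61 genes with a printed log2 change or examined for one, 842 values under the alternatives held 0 changes of direction. Most of these genes were chosen with groups that do not overlap, so their direction could hardly change and the count is no measure of stability. The values that passed the threshold came from the fit of all 12 libraries, apart from DUSP1 above. Among the 26 other lists, the median changed sign in 22 of 104 values with 1 library left out and in 6 of 104 under the other alternatives. Depth is unknown, and genes between 10 and 100 CPM had replicate differences of a size that a change would have to exceed.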

Other observations

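Some genes outside the lists, chosen after their values were seen, lay apart in the treated libraries at high levels. SIK1, a salt-inducible kinase, had 706 and 630.2 CPM in the treated, 14.8 and 0.1 CPM in the co-cultured and 1821 and 1356 CPM in the uncultured libraries (7.23 ± 1.26 on the log2 scale, limma adjusted p = 0.245). The CAPRIN1 copy ENSDARG00000054272, an RNA-binding protein of stress granules, had 5706 and 6728 CPM in the treated, 1842 and 2177 CPM in the co-cultured and 2368 and 1777 CPM in the uncultured libraries (1.5 ± 0.26, limma adjusted p = 0.245). The linker histone gene histh1l1 had 3940.1 and 3879 CPM in the treated, 315 and 992 CPM in the co-cultured and 237 and 176 CPM in the uncultured libraries (2.67 ± 0.62, limma adjusted p = 0.245). None of the 3 passed the threshold in the test over all genes.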
